A study of Homo sapiens with 9 samples.

Results

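The loci described here are transcribed stretches that the deposited RNA-seq table left without a transcript type but named with the symbol of a protein-coding gene. They were chosen in 3 steps. The type field was empty, the single gene name also named a row typed as protein coding, and at least 3 of the 9 libraries reached 1 FPKM (fragments normalised for the length of the locus and the depth of the library). Of the 43444 loci in the table, 2456 met these conditions, and they carried 1468 different symbols. Another 1859 untyped loci shared a symbol with a coding row but missed the FPKM minimum. The third-highest FPKM among the 9 libraries was 1.00002 in the member nearest to the minimum and 0.99972 in the nearest locus left out.

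The study treated cells labelled as A549, a human lung adenocarcinoma line, for 24 h. There were 3 libraries of cells given 2 µM RSL3 together with 5 µM Fer-1, 3 of cells given 2 µM RSL3 and 3 of cells given the solvent DMSO. No genetic change was named in the labels. The labels do not state separate cultures for replicate libraries, and the p-values measure the spread between these libraries, which may be technical.

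RSL3 is a covalent inhibitor of the glutathione peroxidase GPX4, which detoxifies lipid peroxides, and it induces the iron-dependent form of cell death called ferroptosis. Ferrostatin-1, written Fer-1 in the labels, traps lipid radicals and blocks that death. Reads that fall within a gene but outside its annotated exons can come from unspliced precursor RNA, from retained introns, from alternative or unannotated exons, or from separate antisense and intronic transcripts. A transcript assembler that merges libraries writes such stretches as loci of their own. Nothing in the sources used here says whether the libraries kept strand, so reads of a locus and reads of a coding transcript crossing it cannot be told apart.

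Each library held between 39143521 and 45855255 counts. The keratins KRT8 (76.1 to 88.4 FPKM) and KRT18 (139 to 163 FPKM) were abundant in all 9 libraries. The other epithelial and A549 markers were low, with KRT19 at no more than 0.542 FPKM, CDH1 at no more than 0.0247 FPKM, ALDH1A1 at no more than 0.0529 FPKM and AKR1B10 between 0.0896 and 0.279 FPKM. EPCAM was not analysed here. The leukocyte marker PTPRC stayed at or below 0.286 FPKM and the endothelial markers measured at or below 0.0674 FPKM, whereas the fibroblast collagen COL1A1 lay between 0.846 and 5.78 FPKM and the leukocyte and macrophage marker LYZ between 1.1 and 4.1 FPKM. The libraries are therefore called by their label, and the part of other cells in the results was not tested. In these bulk libraries, fewer cells of a type and less RNA per cell cannot be told apart.

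A subset of the loci ran across the start of the gene whose symbol they carried. RefSeq (GRCh38.p14) gave a promoter window of 300 bases, with 250 before the start and 50 after it, for the symbol of 2048 members on the same chromosome, and 90 members spanned a whole window. The windows of 2 such genes, chosen after the values of their loci were seen, are shown. Their spanning loci passed the test described below and kept it when any single library was left out. Other spanning loci passed that test as well, and their windows are not shown. The FMNL2 window is chr2:152334924-152335223 and the PIP5K1A window is chr1:151198302-151198601, both on the plus strand. Capitals mark the only match to the motifs searched, a CACGTG in PIP5K1A that reads ACGTG on both strands, so that its 2 matches overlap.
FMNL2: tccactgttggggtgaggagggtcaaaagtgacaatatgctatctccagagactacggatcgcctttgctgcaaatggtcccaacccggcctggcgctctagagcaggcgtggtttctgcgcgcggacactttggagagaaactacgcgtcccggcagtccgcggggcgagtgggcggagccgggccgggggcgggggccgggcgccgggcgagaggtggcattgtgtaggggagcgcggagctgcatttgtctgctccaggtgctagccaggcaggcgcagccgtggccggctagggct
PIP5K1A: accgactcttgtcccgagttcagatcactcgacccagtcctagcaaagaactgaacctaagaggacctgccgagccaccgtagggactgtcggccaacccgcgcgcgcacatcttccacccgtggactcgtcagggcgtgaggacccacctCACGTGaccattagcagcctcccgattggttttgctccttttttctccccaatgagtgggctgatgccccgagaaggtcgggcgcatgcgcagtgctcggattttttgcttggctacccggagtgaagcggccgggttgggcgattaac
The motifs searched on both strands were ACGTG (hypoxia element core), TGACNNNGC (antioxidant element) and TGANTCA (AP-1 element). Among all 34943 RefSeq windows, 21.4% held ACGTG, 13.3% held TGACNNNGC and 7.72% held TGANTCA. The FMNL2 window held none of these letters and 66.3% G or C, and the PIP5K1A window held 59.7% G or C. These loci lay on the opposite strand of both genes, FMNL2 locus MSTRG.20989 at chr2:152296187-152373688 and PIP5K1A locus MSTRG.3527 at chr1:151195921-151223592.

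Most of the untyped loci lay inside the gene they were named for. By the table's coordinates, 2182 of the 2456 loci lay within the span of the coding row, 141 overlapped it in part, 99 lay downstream and 7 upstream within 10 kb, and 16 lay farther downstream and 11 farther upstream. The strand of the locus was opposite to the coding row for 1049 loci, the same for 353 and not given for 1054. Against the GENCODE 29 annotation, 2327 loci overlapped the gene of their symbol, and 1915 of these touched none of its exons while 412 touched at least 1. A further overlap with an exon of another annotated gene was present at 101 loci. A typical member was short, with a median span of 2424 bases, although the longest covered 225605 bases, and 2281 of the loci held a single transcript model.

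Coding rows with such a locus spanned more of the genome than those without. The tested coding rows that had at least 1 untyped locus numbered 1319 and spanned a median of 88.4 kb, with the middle of the distribution between 44.3 and 162 kb. The 6441 tested coding rows with a single name and without such a locus spanned a median of 27.8 kb, with the middle between 12.1 and 61.2 kb. Median levels of both sets were near each other, at 4.7 and 4.57 FPKM, but their median mean counts were 2993 and 1483. Of the 1468 symbols, 964 carried 1 locus.

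The loci were weakly transcribed compared with their genes. Their median level was 1.41 FPKM, 79.8% of them averaged under 2 FPKM, and 15 averaged at least 10 FPKM. Over the 2178 pairs in which the coding row also passed the FPKM minimum, the locus stood at a median of 35.9% of the FPKM of its coding row, with the middle of the distribution between 18.2% and 59.3%, and 120 loci stood above their coding row. In count terms the median member averaged 103.9 counts per library, 875 members averaged under 50 and 467 averaged at least 500. All loci together took 2.43 ± 0.0308% of the counts in RSL3 plus Fer-1 libraries, 2.47 ± 0.0778% in RSL3 libraries and 2.46 ± 0.0831% in DMSO libraries (SD, n = 3 each), so the group means differed by less than the larger SDs.

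**Figure D1:**
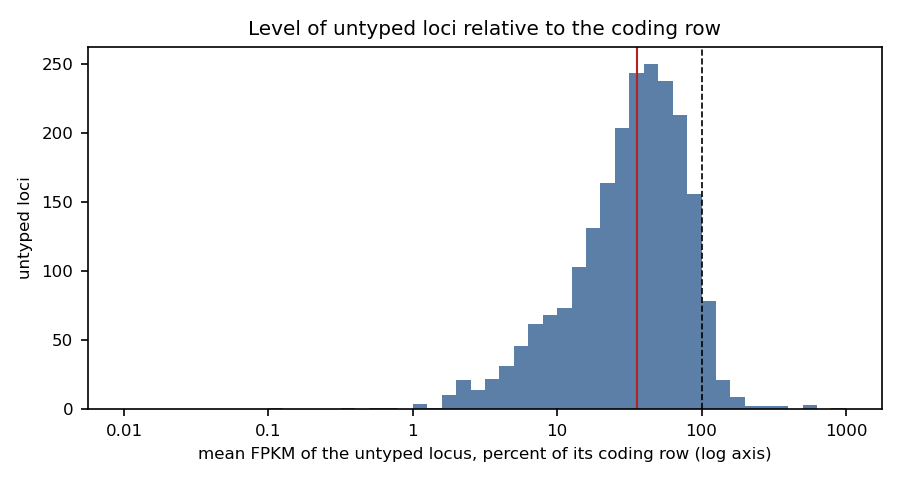
Level of each untyped locus as a percentage of the level of the coding row of the same symbol, both as mean FPKM over 9 libraries, on a log axis, with the number of loci on the vertical axis. The median of the 2178 pairs lies at 35.9%, and 120 loci lie above the dashed line at 100%.

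Each locus was compared between groups with edgeR's quasi-likelihood test, fitted over all 17297 named loci that passed the FPKM minimum and adjusted over all of them by the Benjamini-Hochberg method. The threshold for a call was an adjusted p of 0.05. Between RSL3 and DMSO, 180 members were called, 112 higher and 68 lower with RSL3, which is 7.33% of the members, whereas 16.5% of all loci tested were called in that comparison, 9.04% higher and 7.46% lower. Between RSL3 plus Fer-1 and RSL3, 86 members were called, 25 higher and 61 lower with Fer-1 added, or 3.5% against 6.46% of all loci tested (2.47% higher and 3.99% lower). Between RSL3 plus Fer-1 and DMSO, 59 members were called, 32 higher and 27 lower, or 2.4% against 6.69% of all loci tested (4.03% higher and 2.66% lower). The members' shares were below the background in all 3 comparisons, and close to those of rows typed as lncRNA, at 7.02%, 3.95% and 3.39% in the same order. The members' counts depended on the setting. For RSL3 versus DMSO they were 102 with limma on log2(FPKM + 1). They were 116 with an FPKM minimum of 2, but fewer members were tested there, since 79.8% averaged under 2 FPKM. For RSL3 plus Fer-1 versus RSL3 they were 57 without RSL3 plus Fer-1 replicate 1 and 40 with limma. For RSL3 plus Fer-1 versus DMSO they were 37 without RSL3 plus Fer-1 replicate 3 and 17 with limma. These comparisons share libraries pairwise, so their counts are not independent of each other.

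The median log2 change of the members was -0.02 for RSL3 versus DMSO, -0.01 for RSL3 plus Fer-1 versus RSL3 and -0.02 for RSL3 plus Fer-1 versus DMSO. Over all loci tested these medians were -0.01, 0.00 and -0.00. The median member thus lay within 0.02 of no change.

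The share of members called was higher at higher counts. Members averaging under 50 counts were called in 1.94% of cases between RSL3 and DMSO, against 1.08% of the other loci at that depth. At 50 to 500 counts the shares were 4.94% of members and 8.22% of other loci. At 500 counts or more they were 23.1% of members and 26% of other loci. In the comparison of RSL3 plus Fer-1 with RSL3, members with at least 500 counts were called in 14.1% of cases, against 10% of other loci with that many counts. In that of RSL3 plus Fer-1 with DMSO the shares were 8.57% and 11%. Loci whose strand was not given averaged fewest counts, with a median of 32.2, and 3.42% of them were called between RSL3 and DMSO, compared with 10.4% of opposite-strand loci (median 267 counts) and 9.92% of same-strand loci (median 210 counts).

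**Figure D2:**
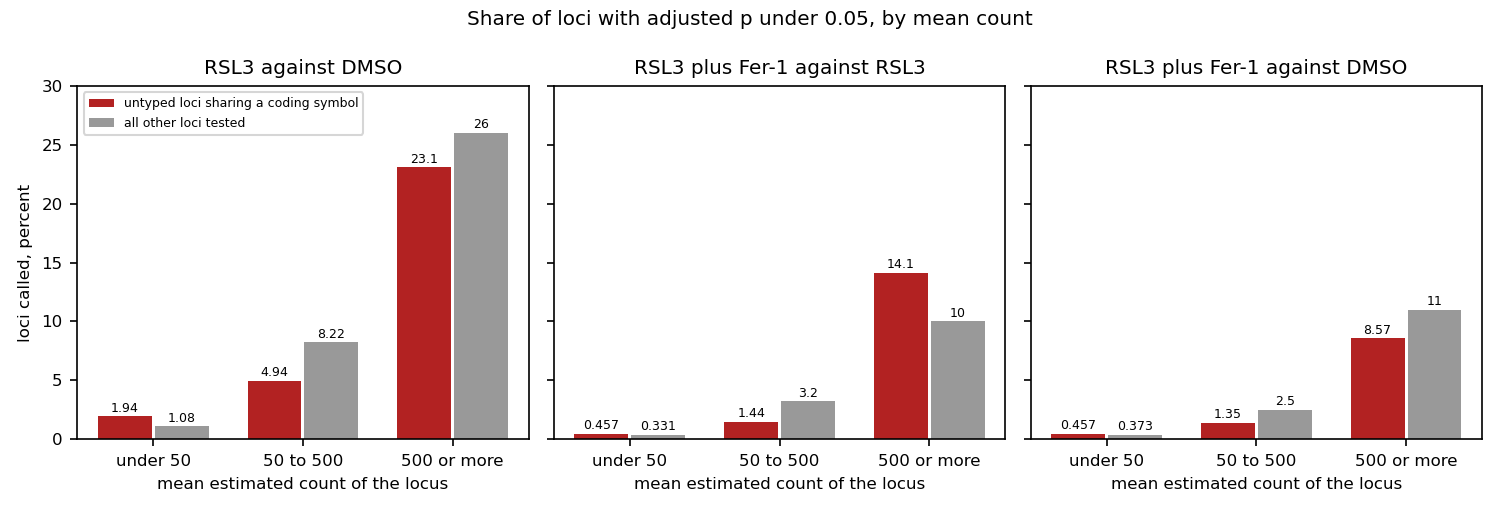
Percentage of loci called at an adjusted p under 0.05 by mean count per library, for the untyped loci and for all other loci tested, in the 3 comparisons. In RSL3 versus DMSO the share of members called was 1.94% under 50 counts and 23.1% at 500 counts or more, and that of the other loci 1.08% and 26%.

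The FPKM minimum itself could make some loci differ. It was reached in all 3 libraries of 1 group and in no other library by 5 members in RSL3 plus Fer-1, 7 in RSL3 and 3 in DMSO. Of the members called between RSL3 and DMSO, 16 of the 112 higher ones had no DMSO library at the minimum, and 11 of the 68 lower ones had no RSL3 library at it. In RSL3 plus Fer-1 versus RSL3 the lower group had no library at the minimum for 4 of the 25 higher and 5 of the 61 lower members. In RSL3 plus Fer-1 versus DMSO this was so for 6 of the 32 higher and 1 of the 27 lower members.

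When a locus was called and its coding row was called too, both moved the same way with 1 exception. Of 108 loci called higher with RSL3 than with DMSO whose coding row was also tested, the coding row was called higher for 77 (71.3%), lower for 0 and not called for 31. Over all pairs, 15.9% had a coding row called higher and 13.3% had one called lower. Of 62 loci called lower with RSL3, the coding row was called lower for 29 (46.8%), higher for 0 and not called for 33. With Fer-1 added to RSL3, 43 of 59 loci called lower and 13 of 23 called higher had a coding row called in the same direction, and the coding rows of the others were not called. Over all pairs, 9.27% had a coding row called lower and 3.81% one called higher in that comparison. In RSL3 plus Fer-1 versus DMSO this held for 17 of 30 higher loci and 15 of 25 lower loci, where 7.94% of all pairs had a coding row called higher and 6.34% one called lower, and the exception was a locus of MSN. Coding rows were called much more often than the loci paired with them: between RSL3 and DMSO, 530 pairs had a called coding row beside a locus that was not called, 106 had both called and 64 had the locus alone called. Median mean counts were 2993 for these coding rows and 104 for the members. Of the uncalled loci, 188 of 270 with a coding row called higher lay above 0, and 192 of 260 with one called lower lay below 0. Over all pairs, 63.2% had changes of the same sign. Several loci can share 1 coding row, and both rows of a pair come from the same libraries, so these pairs are not independent of each other.

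Where the locus had many counts its change lay closer to that of the coding row. Across the 455 pairs whose locus averaged at least 500 counts, Pearson's r between the log2 changes of locus and coding row was 0.59 for RSL3 versus DMSO, 0.63 for RSL3 plus Fer-1 versus RSL3 and 0.51 for RSL3 plus Fer-1 versus DMSO. Across the 678 pairs with fewer than 50 counts it was 0.15, 0.09 and 0.13. For RSL3 versus DMSO it was 0.48 over 1028 opposite-strand pairs, 0.43 over 331 same-strand pairs and 0.12 over 819 pairs with no strand. These are descriptions across loci that share libraries.

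**Figure D3:**
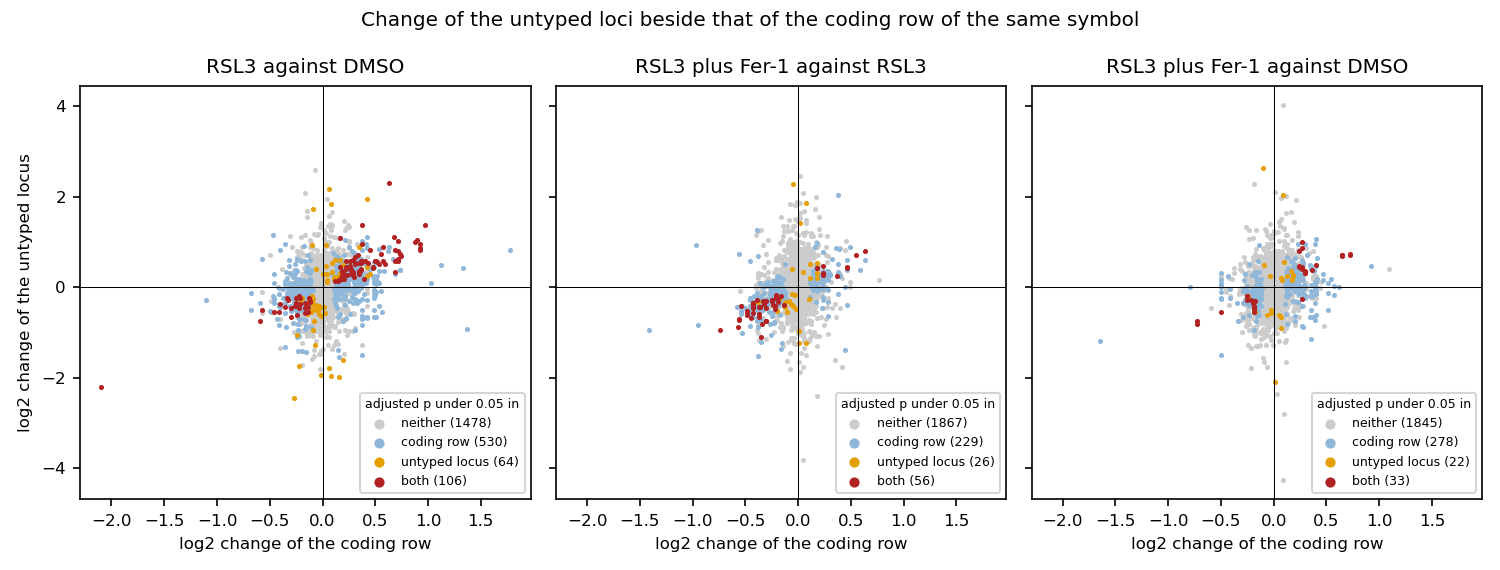
Log2 change of each untyped locus (vertical) against that of the coding row of the same symbol (horizontal), 1 point per pair and 1 panel per comparison, coloured by which of the rows was called at an adjusted p under 0.05. In RSL3 versus DMSO 106 pairs had both called, and these lie in the quadrants of equal sign.

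The difference in change between a locus and its own coding row was tested on their ratio within each library, with limma over 2183 pairs in which a tested row shared the symbol of a tested coding row. Between RSL3 and DMSO, 2 of these ratios passed an adjusted p of 0.05, both lower with RSL3, which is 0.0916% of the pairs. No ratio passed in the other comparisons, where 116 (RSL3 plus Fer-1 versus RSL3) and 123 (RSL3 plus Fer-1 versus DMSO) had an unadjusted p under 0.05. The count for RSL3 versus DMSO was 152. The SE of a ratio was 0.25 on the log2 scale at the median, and 0.14 for loci with at least 500 counts, so that small differences were not detectable.

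Among the ratios that passed, the one that changed more was that of EGLN3, a prolyl hydroxylase that marks hypoxia-inducible factors for destruction. Its untyped locus, MSTRG.11094, lies at chr14:34437414-34461905 on the opposite strand, 214461 bases upstream of the coding row and outside it. The locus had 103, 110 and 105 CPM in RSL3 plus Fer-1 libraries, 80.0, 41.8 and 45.8 CPM in RSL3 libraries and 111, 99.1 and 109 CPM in DMSO libraries (CPM, counts scaled to the depth of the library). The 3 RSL3 values lay below all 6 others, but were uneven among themselves. The coding row went the other way, with 11.4, 12.8 and 12.6 CPM in RSL3 plus Fer-1 libraries, 26.1, 18.2 and 27.8 CPM in RSL3 libraries and 8.83, 9.42 and 9.67 CPM in DMSO libraries, and its groups did not overlap. By edgeR the coding row rose with RSL3 versus DMSO (log2 change 1.37, SE 0.131, adjusted p = 1.39e-08), while the locus had a log2 change of -0.93 (SE 0.245, adjusted p = 0.0523). The ratio of locus to coding row fell by 2.33 on the log2 scale (95% interval -2.84 to -1.82, limma adjusted p = 0.0155). For RSL3 plus Fer-1 versus RSL3 the ratio differed by 1.93 (1.42 to 2.44) at an adjusted p of 0.0591. The call between RSL3 and DMSO was lost without DMSO replicate 1 (-2.26, adjusted p = 0.14), 2 (-2.39, adjusted p = 0.0779) or 3 (-2.34, adjusted p = 0.134) and without RSL3 replicate 2 (-2.34, adjusted p = 0.132), and it was kept without RSL3 replicate 1 (-2.55, adjusted p = 0.00664) or 3 (-2.10, adjusted p = 0.016). The size stayed between -2.10 and -2.55 when a single library was left out. It was -1.55 on log2(FPKM + 1) ratios (adjusted p = 0.0105). With the replicate number as a block the adjusted p was 0.0589. An edgeR usage test, which sets a row against the other rows of its symbol together and so gives a different quantity, returned -0.27 (adjusted p = 0.825).

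The second ratio was that of MGST1, a membrane-bound glutathione transferase and peroxidase. Locus MSTRG.8488, at chr12:16391373-16392712 with no strand given, lies within the gene and is 1 of 5 untyped loci there. It had 2.20, 2.13 and 2.48 CPM in RSL3 plus Fer-1 libraries, 1.85, 1.76 and 1.73 CPM in RSL3 libraries and 2.92, 2.57 and 3.24 CPM in DMSO libraries. The 3 groups did not overlap, although the levels were low. The MGST1 coding row stood at 204, 205 and 211 CPM in RSL3 plus Fer-1 libraries, 202, 204 and 205 CPM in RSL3 libraries and 154, 154 and 167 CPM in DMSO libraries, so that both RSL3 groups were above DMSO. The coding row rose with RSL3 versus DMSO (0.37, SE 0.0397, edgeR adjusted p = 9.83e-08), while the locus alone gave -0.71 (SE 0.256, adjusted p = 0.0596), and the ratio fell by 1.06 (-1.34 to -0.78, limma adjusted p = 0.0276). The ratio kept its size, between -1.02 and -1.12, when any single library was left out, but its adjusted p was then between 0.0779 (without DMSO replicate 2) and 0.21 (without DMSO replicate 1). The other 4 loci in MGST1 had log2 changes of 0.05, -1.49, -0.64 and -0.84, and their adjusted p-values lay between 0.262 and 0.936.

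Several genes held more than 1 called locus. Between RSL3 and DMSO, 28 symbols had 2 or more called members, all higher for 22 symbols and all lower for 6. The counts were 4 higher and 11 lower for RSL3 plus Fer-1 versus RSL3, and 7 higher and 3 lower for RSL3 plus Fer-1 versus DMSO. Of the 1468 symbols, 964 carried 1 locus and could not be among these. The members called were 7.33%, 3.5% and 2.4% in the 3 comparisons, beside 16.5%, 6.46% and 6.69% of all loci tested. No symbol had called loci in both directions within a comparison, which was not tested against other sets of loci. The symbols described next were chosen after their values were seen.

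OSMR, a subunit of the receptor for oncostatin M, held 3 called loci on its opposite strand. Locus MSTRG.28194, at chr5:38852854-38863164, had 22.8, 21.9 and 25.4 CPM in RSL3 plus Fer-1 libraries, 39.3, 28.6 and 33.4 CPM in RSL3 libraries and 21.1, 23.3 and 22.7 CPM in DMSO libraries, with RSL3 above every other library. The 3 OSMR loci rose by 0.60, 0.79 and 0.59 with RSL3 versus DMSO (adjusted p = 5.77e-05, 0.000157 and 0.00108) and fell by 0.53, 0.56 and 0.62 with Fer-1 added to RSL3 (adjusted p = 0.000586, 0.0105 and 0.00167). MSTRG.28195 lost the second call without RSL3 replicate 3 (-0.50, adjusted p = 0.0527) or RSL3 plus Fer-1 replicate 2 (-0.50, adjusted p = 0.073). None of the 3 was called between RSL3 plus Fer-1 and DMSO, with log2 changes of 0.06, 0.22 and -0.03 and adjusted p-values from 0.451 to 0.956, while the coding row was called there at 0.23 (adjusted p = 6.01e-05). Whether a locus and its coding row differed in this was covered by the ratio test, which called none.

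FMNL2 encodes a formin that elongates actin filaments at the cell edge. Its 3 opposite-strand loci include MSTRG.20989, which spans the promoter window printed above. Locus MSTRG.20992, at chr2:152391931-152441932, had 204, 206 and 195 CPM in RSL3 plus Fer-1 libraries, 255, 234 and 248 CPM in RSL3 libraries and 192, 193 and 211 CPM in DMSO libraries. It held more counts than the coding row, which had 75.2, 75.7 and 73.0 CPM in RSL3 plus Fer-1 libraries, 96.6, 83.4 and 86.0 CPM in RSL3 libraries and 66.9, 72.0 and 69.5 CPM in DMSO libraries. Per length it was lower, at 3.58 FPKM against 7.64 FPKM for the coding row. The 3 loci rose by 0.32, 0.31 and 0.35 with RSL3 versus DMSO (adjusted p = 0.00078, 5.28e-06 and 4.64e-05) and fell by 0.29, 0.28 and 0.31 with Fer-1 added to RSL3 (adjusted p = 0.00409, 4.19e-05 and 0.000431). The coding row changed by 0.35 (SE 0.0575, adjusted p = 5.33e-05) and -0.25 (SE 0.0574, adjusted p = 0.00607) in these comparisons.

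GRAMD1B is a sterol transfer protein of the endoplasmic reticulum. Locus MSTRG.8016, at chr11:123477347-123479694, had 11.2, 12.8 and 12.3 CPM in RSL3 plus Fer-1 libraries, 15.8, 13.7 and 14.3 CPM in RSL3 libraries and 7.75, 8.38 and 6.47 CPM in DMSO libraries, and no groups overlapped. It rose against DMSO in RSL3 (0.95, SE 0.130, adjusted p = 4.24e-06) and in RSL3 plus Fer-1 (0.68, SE 0.130, adjusted p = 0.000943), while RSL3 plus Fer-1 versus RSL3 gave -0.27 (adjusted p = 0.262). The coding row had 1431, 1452 and 1458 CPM in RSL3 plus Fer-1 libraries, 1752, 1737 and 1745 CPM in RSL3 libraries and 904, 903 and 960 CPM in DMSO libraries. Its log2 changes of 0.92, 0.65 and -0.27 in these 3 comparisons were all called.

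BMP6, a secreted ligand of the bone morphogenetic protein family, had 2 loci that were highest with both compounds. Locus MSTRG.29883, at chr6:7727626-7759607 on the opposite strand, had 137, 144 and 147 CPM in RSL3 plus Fer-1 libraries, 110, 118 and 122 CPM in RSL3 libraries and 89.7, 82.5 and 86.5 CPM in DMSO libraries, without overlap. It rose in RSL3 versus DMSO (0.43, SE 0.0490, adjusted p = 2.16e-07), again with Fer-1 added to RSL3 (0.29, SE 0.0487, adjusted p = 0.000185), and in RSL3 plus Fer-1 versus DMSO (0.73, SE 0.0490, adjusted p = 4.36e-11). The BMP6 coding row changed by 0.48, 0.24 and 0.72, and locus MSTRG.29884 by 0.44, 0.27 and 0.71, and all of these were called.

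GDA, the guanine deaminase, was lowest with Fer-1. Its opposite-strand locus MSTRG.35453, at chr9:72168405-72190404, had 23.0, 21.4 and 23.6 CPM in RSL3 plus Fer-1 libraries, 38.3, 37.0 and 36.4 CPM in RSL3 libraries and 40.7, 40.9 and 38.5 CPM in DMSO libraries. The locus fell by 0.72 on the log2 scale with Fer-1 added to RSL3 (SE 0.0729, adjusted p = 1.10e-07) and by 0.82 against DMSO (SE 0.0728, adjusted p = 1.02e-08), whereas RSL3 versus DMSO gave -0.10 (adjusted p = 0.388). MSTRG.35452 gave -0.71, -0.74 and -0.04 in the same order. The coding row fell to 113, 114 and 117 CPM in RSL3 plus Fer-1 libraries, against 169, 167 and 173 CPM in RSL3 libraries and 184, 194 and 191 CPM in DMSO libraries, and its smaller change between RSL3 and DMSO was also called (-0.16, adjusted p = 0.00409).

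Within EXT1, a glycosyltransferase that builds heparan sulfate chains, 5 loci were called in both comparisons with RSL3 libraries. They rose by 0.17 to 0.25 with RSL3 versus DMSO and fell by 0.35 to 0.47 with Fer-1 added to RSL3, beside coding row changes of 0.18 (adjusted p = 0.0252) and -0.43 (adjusted p = 7.02e-06). The calls of the rise with RSL3 were lost under some settings. Without RSL3 replicate 3, MSTRG.34514, MSTRG.34516 and MSTRG.34517 lost it (0.17, 0.15 and 0.16, adjusted p = 0.0618, 0.0705 and 0.0842). Without DMSO replicate 2 the same happened to MSTRG.34514 (0.16, adjusted p = 0.0887) and MSTRG.34516 (0.16, adjusted p = 0.0627), and it happened to MSTRG.34516 also without DMSO replicate 1 (0.14, adjusted p = 0.091). With limma on log2(FPKM + 1), the rise was lost by MSTRG.34513 (0.14, adjusted p = 0.0555), MSTRG.34514 (0.15, adjusted p = 0.0741) and MSTRG.34516 (0.13, adjusted p = 0.0738).

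**Figure D4:**
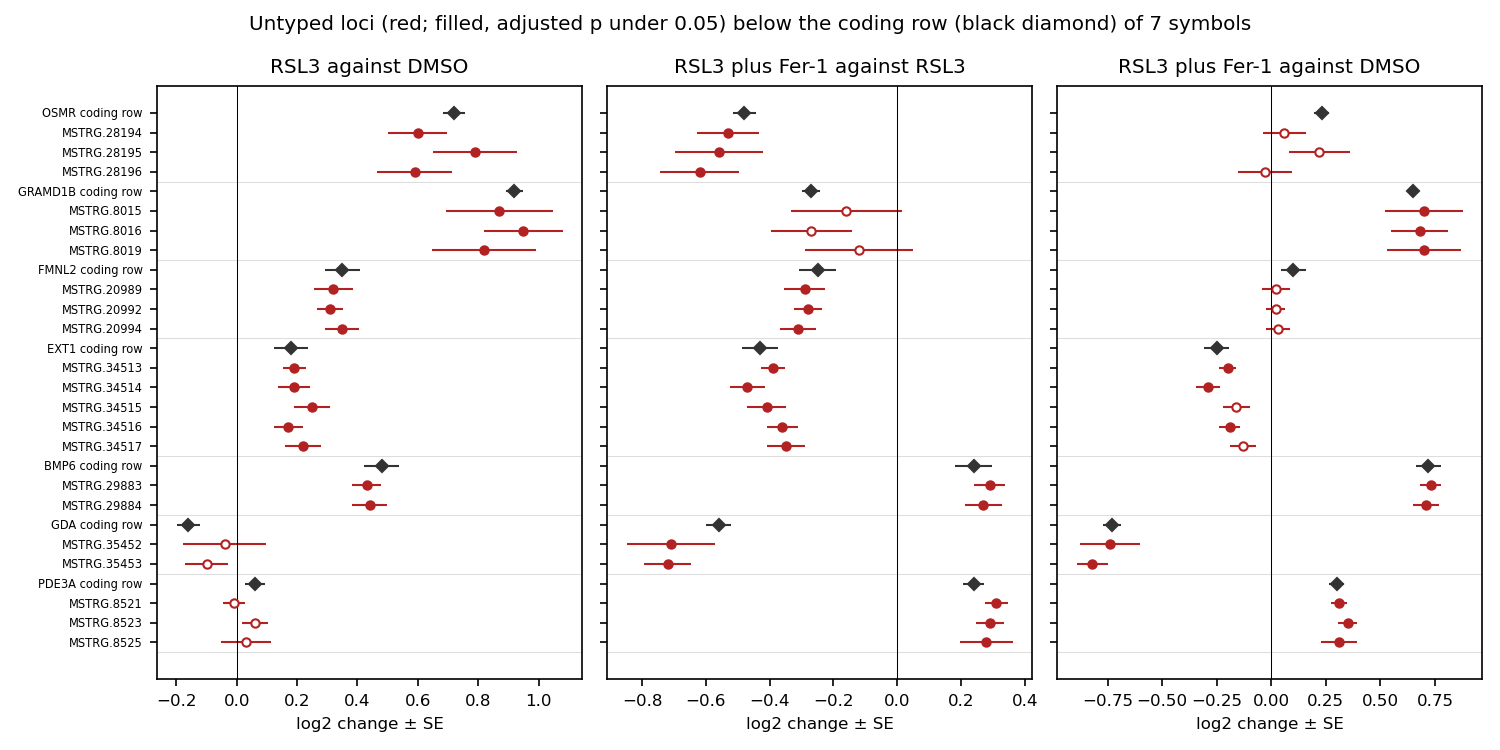
Log2 change with its SE for the called untyped loci and the coding row of 7 symbols that held several called loci, in the 3 comparisons. The OSMR and FMNL2 loci lie above 0 for RSL3 versus DMSO and below 0 for RSL3 plus Fer-1 versus RSL3, while the BMP6 loci lie above 0 in all 3.

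PDE3A encodes a phosphodiesterase that hydrolyses cyclic AMP and cyclic GMP. Its locus MSTRG.8521, at chr12:20386199-20428489 on the strand of the gene, was among the highest of all members at 14.7 FPKM. It had 451, 456 and 459 CPM in RSL3 plus Fer-1 libraries, 365, 358 and 377 CPM in RSL3 libraries and 346, 381 and 377 CPM in DMSO libraries, and so stood above both other groups with Fer-1. The log2 change was 0.31 against RSL3 (SE 0.0362, adjusted p = 9.91e-07) and 0.31 against DMSO (SE 0.0362, adjusted p = 1.33e-06), beside 0.24 and 0.30 for the coding row. Of the 4 PDE3A loci, 3 were called in each of these comparisons. One of them, MSTRG.8525, lost its call against RSL3 with any of 5 single libraries left out (adjusted p up to 0.187). Against DMSO it lost its call with any of 4 left out (adjusted p up to 0.119). All PDE3A loci ranged from -0.28 to 0.31 against RSL3 and from -0.24 to 0.35 against DMSO. PDE10A, another cyclic nucleotide phosphodiesterase, held locus MSTRG.31707, which was lowest with RSL3 alone. It had 276, 265 and 264 CPM in RSL3 plus Fer-1 libraries, 210, 174 and 206 CPM in RSL3 libraries and 264, 266 and 269 CPM in DMSO libraries. Its log2 change was -0.44 for RSL3 versus DMSO (adjusted p = 9.20e-06) and 0.45 for RSL3 plus Fer-1 versus RSL3 (adjusted p = 1.83e-05), with the coding row at -0.36 and 0.46. For RSL3 plus Fer-1 versus RSL3, 2 of the 5 PDE10A loci were called, and all 5 ranged from -0.39 to 0.59. The other called locus, MSTRG.31701, lost its call with any of 3 single libraries left out (adjusted p up to 0.0937). PDE1A locus MSTRG.21273 had 52.1, 55.6 and 52.8 CPM in RSL3 plus Fer-1 libraries, 32.1, 30.1 and 30.5 CPM in RSL3 libraries and 40.3, 46.2 and 48.5 CPM in DMSO libraries. It rose by 0.79 with Fer-1 added to RSL3 (SE 0.0718, adjusted p = 1.94e-08), and the coding row by 0.63.

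Among the 10 called members with the largest change in each direction, locus and coding row were often not called together. Between RSL3 and DMSO the coding row was called in the same direction for 3 of the 10 higher loci and 1 of the 10 lower loci, was not called for 4 and 9, and was not tested for 3 of the higher ones. For RSL3 plus Fer-1 versus RSL3 it was called in the same direction for 4 of 10 higher and 6 of 10 lower loci, and for RSL3 plus Fer-1 versus DMSO for 6 of 10 and 2 of 10. For none of these loci was it called in the opposite direction. In ITGA2, OSBP2 and SIK2 the coding row was called in the same direction. ITGA2, the collagen-binding integrin subunit alpha 2, had a same-strand locus (MSTRG.28288, chr5:52991634-52996461) with 5.87, 5.45 and 5.96 CPM in RSL3 plus Fer-1 libraries, 12.5, 8.78 and 10.8 CPM in RSL3 libraries and 4.99, 4.62 and 2.82 CPM in DMSO libraries. It rose with RSL3 versus DMSO (1.37, SE 0.188, adjusted p = 4.72e-06) and fell with Fer-1 added to RSL3 (-0.89, SE 0.184, adjusted p = 0.00213), with the coding row at 0.97 and -0.57. No DMSO library reached 1 FPKM at this ITGA2 locus (0.879, 0.811 and 0.493 FPKM). It passed the minimum only through the groups where it was higher. OSBP2, a member of the oxysterol-binding protein family, had a locus (MSTRG.23751) with log2 changes of 1.37 for RSL3 versus DMSO (SE 0.228, adjusted p = 0.000871) and 1.0 for RSL3 plus Fer-1 versus DMSO (SE 0.227, adjusted p = 0.0174), against 0.37 and 0.27 in the coding row. The second of these was lost without DMSO replicate 1 (1.0, adjusted p = 0.0933) and without RSL3 plus Fer-1 replicate 1 (0.93, adjusted p = 0.067) or 3 (0.87, adjusted p = 0.0616). At the OSBP2 locus, too, no DMSO library reached 1 FPKM (0.639, 0.429 and 0.855 FPKM). That locus also passed the minimum only through the groups where it was higher. SIK2, a salt-inducible kinase, had a locus that rose by 0.72 with Fer-1 added to RSL3 (SE 0.150, adjusted p = 0.00235), beside 0.55 in the coding row.

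The named loci of DCTN2, EIF4EBP2, TMEM104 and PDIK1L stood beside a coding row that was not called. DCTN2, a subunit of the dynein activator dynactin, held opposite-strand locus MSTRG.9183 (chr12:57538442-57540030) with 2.43, 1.09 and 1.67 CPM in RSL3 plus Fer-1 libraries, 4.08, 3.96 and 4.12 CPM in RSL3 libraries and 3.19, 3.86 and 2.68 CPM in DMSO libraries. It was lowest with Fer-1 and fell by 1.23 against RSL3 (SE 0.266, adjusted p = 0.00336), while the coding row gave 0.01 (adjusted p = 0.96) and the ratio -1.29 (95% interval -2.01 to -0.58, limma adjusted p = 0.63). In EIF4EBP2, which encodes a repressor of translation initiation, MSTRG.5489 also fell by 1.23 in that comparison (SE 0.306, adjusted p = 0.0118), beside 0.07 in the coding row and a ratio of -1.25 (-1.63 to -0.86, limma adjusted p = 0.0866). Its call was lost without RSL3 replicate 1 (-1.08, adjusted p = 0.0781) or RSL3 plus Fer-1 replicate 3 (-1.12, adjusted p = 0.0599). TMEM104, a transmembrane protein, held MSTRG.16814, which fell by 1.99 with RSL3 versus DMSO (SE 0.577, adjusted p = 0.0163) beside 0.16 in the coding row (adjusted p = 0.417). It lost its call without DMSO replicate 1 (-1.62, adjusted p = 0.104) or RSL3 replicate 2 (-1.63, adjusted p = 0.0819). The PDIK1L locus MSTRG.1849 had 7, 21 and 10 counts in RSL3 plus Fer-1 libraries, 6, 2 and 2 in RSL3 libraries and 23, 29 and 7 in DMSO libraries. With RSL3 versus DMSO it fell by 2.44 (SE 0.747, adjusted p = 0.0235), beside -0.27 in the coding row of that kinase gene (adjusted p = 0.23), and with any of 4 single libraries left out its adjusted p was between 0.0619 and 0.123. No RSL3 library reached 1 FPKM at the TMEM104 or PDIK1L locus. Both passed the minimum only through the groups where they were higher.

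Some called loci stood beside a coding row that was not called. NAV2, a microtubule-associated neuron navigator protein, held locus MSTRG.6678 (chr11:19597840-19630893, no strand given) with 53.3, 53.5 and 53.9 CPM in RSL3 plus Fer-1 libraries, 54.2, 57.1 and 53.8 CPM in RSL3 libraries and 72.8, 70.5 and 72.5 CPM in DMSO libraries. Both RSL3 groups lay below DMSO without overlap. It fell by 0.39 with RSL3 versus DMSO (SE 0.0552, adjusted p = 8.51e-06) and MSTRG.6680 fell by 0.51 (SE 0.0693, adjusted p = 4.03e-06), while the coding row gave -0.06 (SE 0.0568, adjusted p = 0.543). In RSL3 plus Fer-1 versus DMSO these loci fell by 0.42 and 0.55 and the coding row by 0.19 (adjusted p = 0.0408). Of the 7 NAV2 loci, 2 were called for RSL3 versus DMSO and 4 for RSL3 plus Fer-1 versus DMSO. All 7 ranged from -0.70 to -0.10 and from -0.95 to -0.20 in that order. The RSL3 plus Fer-1 versus DMSO call of MSTRG.6681 was lost with any of 4 single libraries left out (adjusted p up to 0.115). That of MSTRG.6685 was lost with either of 2 left out (adjusted p up to 0.0868). The HDLBP locus MSTRG.21942 lies within the gene of the RNA-binding protein vigilin. It had 16, 17.7 and 16.5 CPM in RSL3 plus Fer-1 libraries, 23.8, 19.4 and 24.2 CPM in RSL3 libraries and 25.5, 22.3 and 31.6 CPM in DMSO libraries, with RSL3 plus Fer-1 below the rest. In RSL3 plus Fer-1 versus DMSO the locus fell by 0.66 (SE 0.114, adjusted p = 0.000396), the coding row gave 0.07 (adjusted p = 0.206), and the ratio differed by -0.72 (95% interval -1.10 to -0.34) at an adjusted p of 0.627 over all pairs. No ratio of these genes passed the test, so the locus and its coding row were not shown to differ.

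With limma on log2(FPKM + 1) in place of the count test, several of the calls described for these genes were lost. Among them were those of OSMR MSTRG.28194 (-0.37, adjusted p = 0.0555) and MSTRG.28195 (-0.36, adjusted p = 0.0747), BMP6 MSTRG.29884 (0.20, adjusted p = 0.104), ITGA2 (-0.51, adjusted p = 0.0735) and SIK2 (0.46, adjusted p = 0.0506) for RSL3 plus Fer-1 versus RSL3. Against DMSO, RSL3 plus Fer-1 lost those of NAV2 MSTRG.6678 (-0.27, adjusted p = 0.0613), HDLBP (-0.44, adjusted p = 0.0518) and OSBP2 (0.47, adjusted p = 0.125). GDA MSTRG.35452 lost its call in both (-0.47, adjusted p = 0.0631, and -0.51, adjusted p = 0.0505). The pseudocount of 1 shrinks changes of loci at low FPKM on that scale, so these sizes are not those of the count test. Why the calls were lost was not tested.

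MSN, which encodes moesin, a linker of actin to the plasma membrane, gave the 1 pair called in opposite directions. Locus MSTRG.597, at chrX:65622121-65695139, had 23.7, 25.2 and 22.4 CPM in RSL3 plus Fer-1 libraries, 27.9, 28.3 and 28.2 CPM in RSL3 libraries and 28.8, 27.4 and 29.6 CPM in DMSO libraries. It fell by 0.27 in RSL3 plus Fer-1 versus DMSO (SE 0.0787, adjusted p = 0.0373), while the coding row rose by 0.27 (SE 0.0317, adjusted p = 1.39e-06). The locus lost its call without DMSO replicate 1 (-0.26, adjusted p = 0.104), 2 (-0.30, adjusted p = 0.0598) or 3 (-0.24, adjusted p = 0.14) and without RSL3 plus Fer-1 replicate 1 (-0.26, adjusted p = 0.0911) or 3 (-0.22, adjusted p = 0.193), with no FPKM minimum (-0.27, adjusted p = 0.0569) and with limma on log2(FPKM + 1) (-0.19, adjusted p = 0.106). The ratio of the pair gave -0.54 (-0.81 to -0.26) at an adjusted p of 0.627.

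PIP5K1A encodes a lipid kinase that makes phosphatidylinositol 4,5-bisphosphate. Its promoter-spanning locus had 66.8, 74.0 and 63.7 CPM in RSL3 plus Fer-1 libraries, 66.0, 67.7 and 70.0 CPM in RSL3 libraries and 80.8, 82.6 and 87.8 CPM in DMSO libraries. It fell by 0.30 both in RSL3 (SE 0.0590, adjusted p = 0.000475) and in RSL3 plus Fer-1 (SE 0.0589, adjusted p = 0.00146) against DMSO, and the coding row by 0.12 (adjusted p = 0.0475) and 0.19 (adjusted p = 0.00315). Of the 90 members that spanned a promoter window of their symbol, 7 were called for RSL3 versus DMSO, 6 for RSL3 plus Fer-1 versus RSL3 and 3 for RSL3 plus Fer-1 versus DMSO. These shares of 7.78%, 6.67% and 3.33% stand beside 16.5%, 6.46% and 6.69% of all loci tested.

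**Figure D5:**
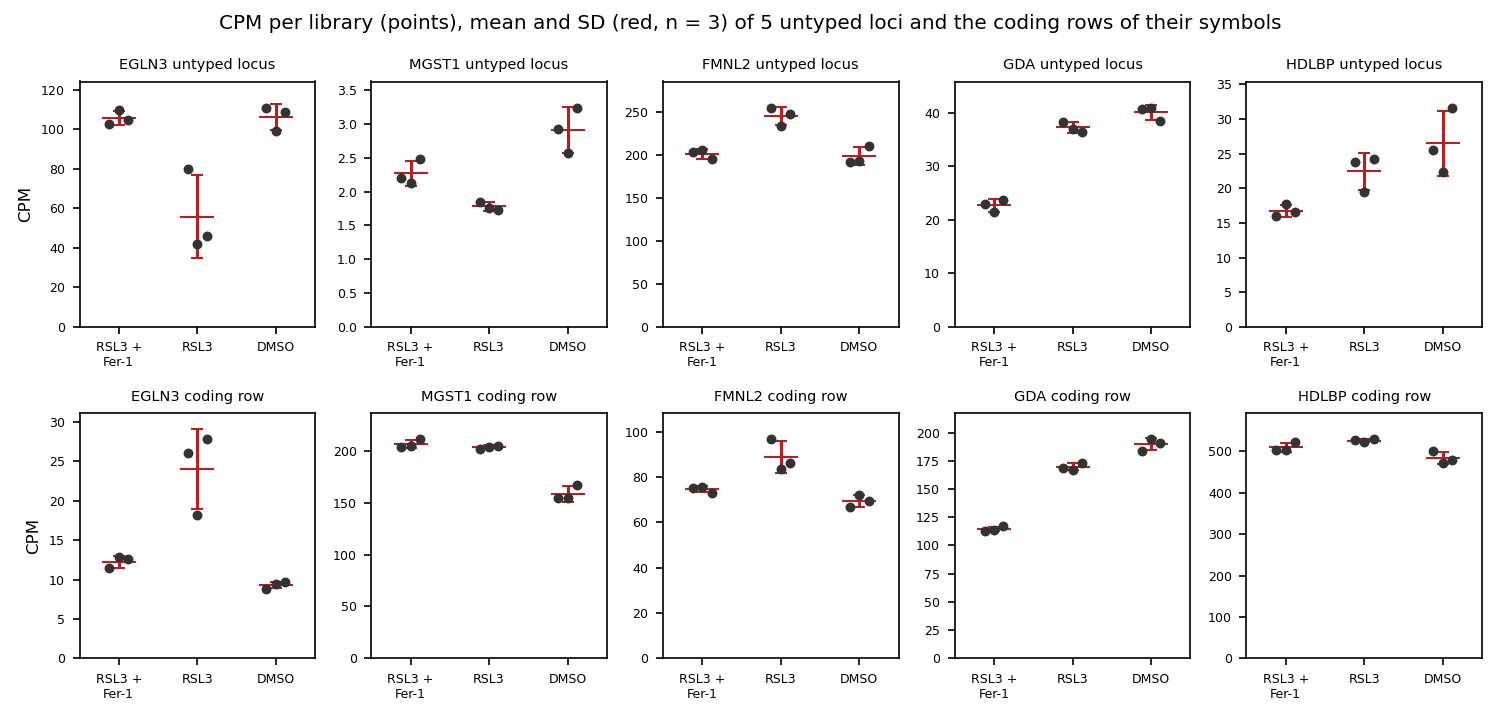
CPM in each library for 5 untyped loci and the coding rows of their symbols (EGLN3, MGST1, FMNL2, GDA and HDLBP), with RSL3 plus Fer-1, RSL3 and DMSO from left to right. Points are libraries, and red bars give the mean and SD (n = 3). The EGLN3 locus is lowest in the RSL3 libraries (41.8 to 80.0 CPM) while its coding row is highest there (18.2 to 27.8 CPM).

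Genes of the response lists supplied 18 members, from lists that cover NRF2 targets, regulators of ferroptosis, hypoxia and related programmes. Of these 18, 1 was called higher and 0 lower between RSL3 and DMSO, and 0 were called in the other comparisons. These shares of 5.56%, 0% and 0% stand beside 16.5%, 6.46% and 6.69% of all loci tested. The 18 members carried 15 symbols, 14 of which had a tested coding row. Counted once per symbol, 9 of the 14 coding rows were called for RSL3 versus DMSO, 6 for RSL3 plus Fer-1 versus RSL3 and 4 for RSL3 plus Fer-1 versus DMSO, where 24.9%, 9.42% and 10.3% of all coding rows tested were called. The lists were chosen with earlier results of these data known, so these counts are no test of the lists. The called member lay in TXNRD1, the selenoenzyme thioredoxin reductase 1 and a target of NRF2, as MSTRG.9684 at chr12:104323440-104325319. It had 10.3, 10.4 and 10.2 CPM in RSL3 plus Fer-1 libraries, 12.5, 14.1 and 13.9 CPM in RSL3 libraries and 9.33, 8.63 and 10.6 CPM in DMSO libraries, with the RSL3 libraries above all others. The locus rose by 0.51 with RSL3 versus DMSO (SE 0.125, adjusted p = 0.00462), close to the 0.59 of its coding row, and gave -0.39 with Fer-1 added to RSL3 (adjusted p = 0.0579). In RSL3 plus Fer-1 versus DMSO it gave 0.11 (adjusted p = 0.731), whereas its coding row was called at 0.40 (adjusted p = 4.36e-11).

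The largest fold changes among called members between RSL3 and DMSO belonged to loci with few counts. The CLYBL locus MSTRG.10736 had 20, 20 and 10 counts in RSL3 plus Fer-1 libraries, 27, 6 and 13 counts in RSL3 libraries and 3, 0 and 0 counts in DMSO libraries. Summed per group and scaled to depth, RSL3 libraries held 16.1 times as much as DMSO libraries (exact 95% interval 5.19 to 81.1), and RSL3 plus Fer-1 libraries 15.6 times as much (5.05 to 78.3). These intervals cover counting error only. The edgeR adjusted p was 0.00432 for RSL3 and 0.011 for RSL3 plus Fer-1, and the second call was lost without DMSO replicate 2 (adjusted p = 0.0652) or 3 (adjusted p = 0.0575) and with no FPKM minimum (adjusted p = 0.057). With limma on log2(FPKM + 1) both calls were lost, at 0.86 (adjusted p = 0.112) and 0.90 (adjusted p = 0.178). At the SLC25A53 locus MSTRG.830 the counts were 9, 5 and 17 in RSL3 plus Fer-1 libraries, 15, 15 and 18 in RSL3 libraries and 1, 3 and 0 in DMSO libraries. The RSL3 sum was 12.6 times that of DMSO (4.63 to 48.2, adjusted p = 0.00384), and with no FPKM minimum the adjusted p was 0.0616. The coding rows of both symbols, a mitochondrial enzyme and a mitochondrial carrier, missed the FPKM minimum. HRH1, the histamine H1 receptor, had a locus (MSTRG.24238) with 14, 13 and 26 counts in RSL3 plus Fer-1 libraries, 41, 36 and 18 in RSL3 libraries and 7, 8 and 5 in DMSO libraries, and it rose by 2.31 with RSL3 versus DMSO (SE 0.588, adjusted p = 0.00624), beside 0.63 in its coding row. No DMSO library reached 1 FPKM at the CLYBL, SLC25A53 or HRH1 locus, so each passed the minimum only through the groups where it was higher. The PZP locus MSTRG.8326 fell, with 12, 12 and 22 counts in RSL3 plus Fer-1 libraries, 5, 12 and 3 in RSL3 libraries and 27, 41 and 31 in DMSO libraries. Its log2 change of -2.21 (SE 0.603, adjusted p = 0.0106) stood beside -2.10 in the coding row of PZP, a protease inhibitor of the alpha-2-macroglobulin family. That call was lost without DMSO replicate 2 (-1.99, adjusted p = 0.0506) or RSL3 replicate 3 (-1.88, adjusted p = 0.0567). The PZP locus reached 1 FPKM in the 3 DMSO libraries alone, so it passed the minimum through the group where it was high and had to differ. The same limit holds for the PZP coding row, which averaged 0.667 FPKM over the 9 libraries. It had 10.2, 10 and 10.5 CPM in DMSO libraries and 2.13 to 3.8 CPM in the others. Its change is therefore no separate support for that of the locus.

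Among the members with the highest levels were loci in genes whose coding row was almost silent. ADGRE3, an adhesion G protein-coupled receptor of myeloid cells, held MSTRG.18336 (chr19:14622293-14623299), the highest of all at 104 FPKM, while its coding row averaged 0.0284 FPKM. That locus had 7439, 0 and 6899 counts in RSL3 plus Fer-1 libraries, 0, 6751 and 6461 in RSL3 libraries and 6537, 6949 and 6525 in DMSO libraries. Similarly, the EFCAB6 locus MSTRG.24041 averaged 34.8 FPKM against 0.00796 FPKM in the coding row, and the NMBR locus MSTRG.31429 15.3 FPKM against 0.0291 FPKM in the coding row of the neuromedin B receptor. None of these 3 was called between any groups. EGFR, the epidermal growth factor receptor, held an opposite-strand locus of 17.4 FPKM (MSTRG.32338, chr7:55167471-55168522) with 17.7, 19.1 and 17.3 CPM in RSL3 plus Fer-1 libraries, 21.8, 21.2 and 22.7 CPM in RSL3 libraries and 16.7, 19.1 and 17.5 CPM in DMSO libraries. Its log2 change was 0.30 for RSL3 versus DMSO (SE 0.0963, adjusted p = 0.0288), a call lost without DMSO replicate 1 (0.26, adjusted p = 0.127) or 3 (0.30, adjusted p = 0.0727) and without RSL3 replicate 1 (0.31, adjusted p = 0.0608) or 3 (0.28, adjusted p = 0.093). The EGFR coding row was uneven within groups, with 7772, 7772 and 7790 CPM in RSL3 plus Fer-1 libraries, 10066, 6020 and 10088 CPM in RSL3 libraries and 7410, 7236 and 4515 CPM in DMSO libraries. BASP1, a membrane-associated signalling protein, held a locus of 14 FPKM (MSTRG.28012) that fell to 280, 281 and 317 CPM in RSL3 libraries, against 333, 335 and 351 CPM in DMSO libraries (-0.21, SE 0.0409, adjusted p = 0.000382).

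The ADGRE3 locus was not alone in dropping to 0 in single libraries. A count of 0 in at least 1 library was found at 100 members, and 19 of these reached at least 100 counts in another library. None of the 19 was called in any comparison. The RAB7A locus had 0, 443 and 0 counts in RSL3 plus Fer-1 libraries, 440, 384 and 397 in RSL3 libraries and 468, 354 and 491 in DMSO libraries. A pair of neighbouring loci in MCTP2 differed from library to library: MSTRG.13348 had 846, 909 and 1008 counts in RSL3 plus Fer-1 libraries, 582, 0 and 0 in RSL3 libraries and 0, 156 and 0 in DMSO libraries, while MSTRG.13349 had 62, 0 and 26, then 281, 0 and 820, and then 906, 707 and 0 in the same order of groups. A count of 0 allows up to 3 counts, or between 0.0658 and 0.077 CPM at these depths, so such drops were far larger than counting error.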

How the data were processed

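Total RNA of 9 libraries labelled A549 was sequenced. The deposited table held, per the file headers, the authors' FPKM and count of each library for each assembled locus. The submitters' processing notes name cutadapt 1.9, FastQC and the build GRCh38. Aligner, assembler, counter and strand setting were not given in the sources used here. The deposited counts were whole numbers and were treated as estimated counts, since whether they are tallies is not stated. Loci without a gene name, 1496 of 43444 and 0.48 to 0.546% of the counts, were left out of library sizes and tests. The 9 libraries were fitted together in edgeR 4.0.16 (R 4.3.3) with TMM scaling and robust quasi-likelihood, on loci with at least 1 FPKM in at least 3 libraries. CPM are counts scaled to the TMM-adjusted total of named loci. The coding row of a symbol was the protein-coding row with that single name and the most counts. Log2 ratios of a locus to its coding row were tested with limma 3.58.1 (prior count 2). Any replicate pairs of a group differed by more than sampling noise (chi-square per degree of freedom from 9.01 to 15.6). DESeq2 1.42.0, other filters, scalings and single libraries left out were tried as alternatives, and the fits were tested on simulated data.

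Named by rule were the 10 called members with the largest change each way per comparison, the ratios past the threshold, the 10 highest members by FPKM and members with a symbol of the response lists. Loci of OSMR, FMNL2, EXT1, NAV2, MSN, PIP5K1A, RAB7A and MCTP2, and additional values of other loci, were chosen after their values were seen. The members and lists were chosen with earlier results of these data known. The loci's own sequences were not used here, and results of some genes are not reported here.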

Additional observations from a re-analysis of the deposited data

How the results depend on the processing

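Counts of called members are given for RSL3 versus DMSO, RSL3 plus Fer-1 versus RSL3 and RSL3 plus Fer-1 versus DMSO, in that order, and stood at 180, 86 and 59. Leaving out 1 library of a comparison gave 127 to 155, 57 to 73 and 37 to 46 called members, with the lowest counts without DMSO replicate 2, RSL3 plus Fer-1 replicate 1 and RSL3 plus Fer-1 replicate 3. Limma on log2(FPKM + 1) called 102, 40 and 17. Members clear of every coding row gave 7, 0 and 3 calls. That set is much smaller, since 2325 of the 2456 members overlapped a coding row, so its counts are not lower shares by themselves. An FPKM minimum of 2, under which fewer members were tested, gave 116, 69 and 43, and it lowered the members' share of counts to 1.62%. DESeq2 called 202, 113 and 74. The remaining settings, library totals without scaling among them, stayed within 1.5 times of these counts. With the replicate number as a block the counts were 176, 83 and 61. The numbers were not taken as pairs, since the deviations of same-numbered libraries correlated by -0.0497 to 0.0657. The median change of the members stayed between -0.06 and 0.03 under every setting run.

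Differences between a locus and its coding row passed for 2, 0 and 0 pairs. For RSL3 versus DMSO 0 passed with the replicate block, and 0 to 2 when 1 library was left out. For RSL3 plus Fer-1 versus RSL3, 1 passed on log2(FPKM + 1) ratios (EGLN3), 2 with a mean count of at least 50 in both rows (EGLN3 and EIF4EBP2), and 0 to 2 with 1 library left out. For RSL3 plus Fer-1 versus DMSO, 0 to 1 passed with 1 library left out. Among alternatives chosen after seeing the data, a variance trend on level gave 0, 0 and 7 pairs, and an edgeR usage test within a symbol 0, 0 and 6. Why these settings differ was not tested. Of 136 called results of named loci, 79 kept their call when any 1 library was left out, and none changed sign under any setting run. Of the members, 875 averaged under 50 counts.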

Other observations

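A further 933 untyped loci that reached the FPKM minimum carried a symbol found only in coding rows with joint names, and these stood outside the rule. Between RSL3 and DMSO 32 of them were called higher and 31 lower (6.75%). Between RSL3 plus Fer-1 and RSL3 the counts were 8 higher and 16 lower (2.57%), and between RSL3 plus Fer-1 and DMSO 10 higher and 10 lower (2.14%).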
